A study of Mus musculus with 22 samples.

Results

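The genes described here are 10 of the MHC antigen presentation machinery of the mouse: H2-K1, H2-D1, B2m, Tap1, Tap2, Psmb8, Psmb9, Nlrc5, Cd74 and H2-Ab1. They were chosen by symbol from the 27179 gene rows of a count table of 22 RNA-seq libraries, and each symbol matched a row. All cells came from C57BL/6J mice. Mesenchymal stem cells (MSC), stromal cells of the bone marrow, had been expanded in culture from cells sorted as lineage-, CD45-, CD31-, CD44-, SCA1+ and CD51+ from mice aged 10-14 weeks that were wild type or Lama4-/-. Lama4 encodes a laminin chain of the basement membrane. MLL-AF9 acute myeloid leukaemia (AML) cells, of wild type genotype and from mice aged 10-12 weeks, were Lineage-KIT+ bone marrow cells carrying the human MLL-AF9 fusion gene from a retrovirus. In the names used here WT and KO are the genotype of the stroma. WT_MSC (n = 4) and KO_MSC (n = 4) are MSC cultured alone. WT_MSC_AML (n = 5) and KO_MSC_AML (n = 3) are MSC sorted as CD45-CD44-Sca1+ cells after 48 h of culture with AML cells, and WT_AML (n = 3) and KO_AML (n = 3) are the CD45.1+ AML cells sorted from such cultures. The AML cells were not sequenced after culture alone, so the samples hold no measure of what co-culture does to them. The labels do not say which libraries came from separate animals or cultures, so p-values measure the spread between these libraries only, which may be technical.

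MHC class I molecules carry peptides of a cell's own proteins to its surface, where cytotoxic T cells read them. The proteasome cuts the proteins, the TAP transporter moves the peptides into the endoplasmic reticulum, and there a heavy chain binds a peptide together with the light chain beta-2 microglobulin. Interferon gamma raises most of these genes in many cell types and exchanges subunits of the proteasome for those of the immunoproteasome. MHC class II molecules present peptides taken up from outside and are used mainly by dendritic cells, macrophages and B cells, and bone marrow MSC are known to raise both pathways when exposed to interferon gamma. Of the 10 genes, H2-K1, H2-D1, Tap1, Tap2, Psmb8, Psmb9 and H2-Ab1 lie within the major histocompatibility complex on chromosome 17 of GRCm38. B2m lies on chromosome 2 and Nlrc5 on chromosome 8.

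H2-K1 and H2-D1 are closely related genes with different values in Lama4-/- stroma. Tap1 and its neighbour Psmb9 are read in opposite directions from starts 226 bases apart. The upstream 250 bases of H2-K1, H2-D1 and Tap1 are shown 5′ to 3′ in the direction of the gene, from RefSeq on GRCm38.p6. RefSeq promoters were at hand for 6 of the 10 genes. For H2-K1 2 promoters were listed, and the first was used. Its window lies inside the gene as annotated, which extends to 34000619. H2-K1 is chr17:34000348-34000597 on the minus strand, H2-D1 is chr17:35262844-35263093 on the plus strand, and Tap1 is chr17:34187306-34187555 on the plus strand. The Psmb9 promoter shares 225 of these bases with Tap1 on the other strand. Capitals mark the kappaB motif of MHC class I promoters, the interferon regulatory factor core GAANNGAAA and CCAAT, each on either strand.
H2-K1: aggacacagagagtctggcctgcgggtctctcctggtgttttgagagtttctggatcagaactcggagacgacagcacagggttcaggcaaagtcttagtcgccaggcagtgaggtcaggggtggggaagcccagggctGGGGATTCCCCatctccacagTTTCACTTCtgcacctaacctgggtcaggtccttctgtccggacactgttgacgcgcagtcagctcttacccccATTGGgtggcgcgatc
H2-D1: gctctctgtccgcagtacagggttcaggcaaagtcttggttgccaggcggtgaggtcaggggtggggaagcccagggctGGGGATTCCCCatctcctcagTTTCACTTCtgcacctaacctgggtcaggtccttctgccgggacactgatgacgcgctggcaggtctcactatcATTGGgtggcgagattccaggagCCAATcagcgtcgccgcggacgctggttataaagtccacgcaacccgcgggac
Tap1: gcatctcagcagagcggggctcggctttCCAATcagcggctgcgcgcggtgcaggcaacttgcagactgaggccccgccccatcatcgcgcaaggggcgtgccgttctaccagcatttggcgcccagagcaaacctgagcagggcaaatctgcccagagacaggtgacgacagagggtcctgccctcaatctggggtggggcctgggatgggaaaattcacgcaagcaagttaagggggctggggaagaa
In their best matching stretch, taken by local alignment, the H2-K1 and H2-D1 promoters were identical at 161 of 177 aligned bases (91.0%) without a gap. The rest of the 250 bases was not aligned. Each promoter held the kappaB motif and, just downstream of it, the interferon regulatory factor core. The kappaB motif lay 111 bases before the H2-K1 start that was used and 171 before that of H2-D1. The H2-K1 distance holds for that listed start only. The kappaB motif occurred in 10 of 32851 mouse promoters of this length (0.0304%). The interferon regulatory factor core occurred in 6.31% of them and CCAAT in 33.8%. The Tap1 window held CCAAT and neither of the other marked motifs. Each of the 3 windows also held the cAMP response element core TGACG, found in 17.8% of promoters and not marked in capitals, and none held the STAT motif TTCNNNGAA, found in 7.02%. No marked motifs overlapped. These matches describe letters in a window and nothing about binding.

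Levels are given in CPM, read counts relative to library size, after TMM scaling of all 22 libraries together, which held 11201751 to 24826876 counts each. Lama4 stood at 321 to 347 CPM in WT_MSC and 201 to 306 CPM in WT_MSC_AML, and at no more than 1.03 CPM in any KO_MSC or KO_MSC_AML library. The summed level of 12 MSC markers was 26537 to 45443 CPM in the MSC libraries and 110.3 to 398 CPM in the AML libraries. KO_MSC_AML replicate 3 carries the cell type label of the AML cells under an MSC title, and its stromal markers lie in that MSC range. The libraries also differ in sex-linked transcripts. WT_MSC replicate 1 and KO_MSC replicate 3 held Xist without Ddx3y, KO_MSC replicate 1 held both, and the other libraries of MSC alone held Ddx3y. All 5 WT_MSC_AML libraries held Ddx3y, and all 3 KO_MSC_AML libraries held Xist with Ddx3y at no more than 0.929 CPM, so after co-culture genotype and sex of the donor cells cannot be told apart.

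**Figure D1:**
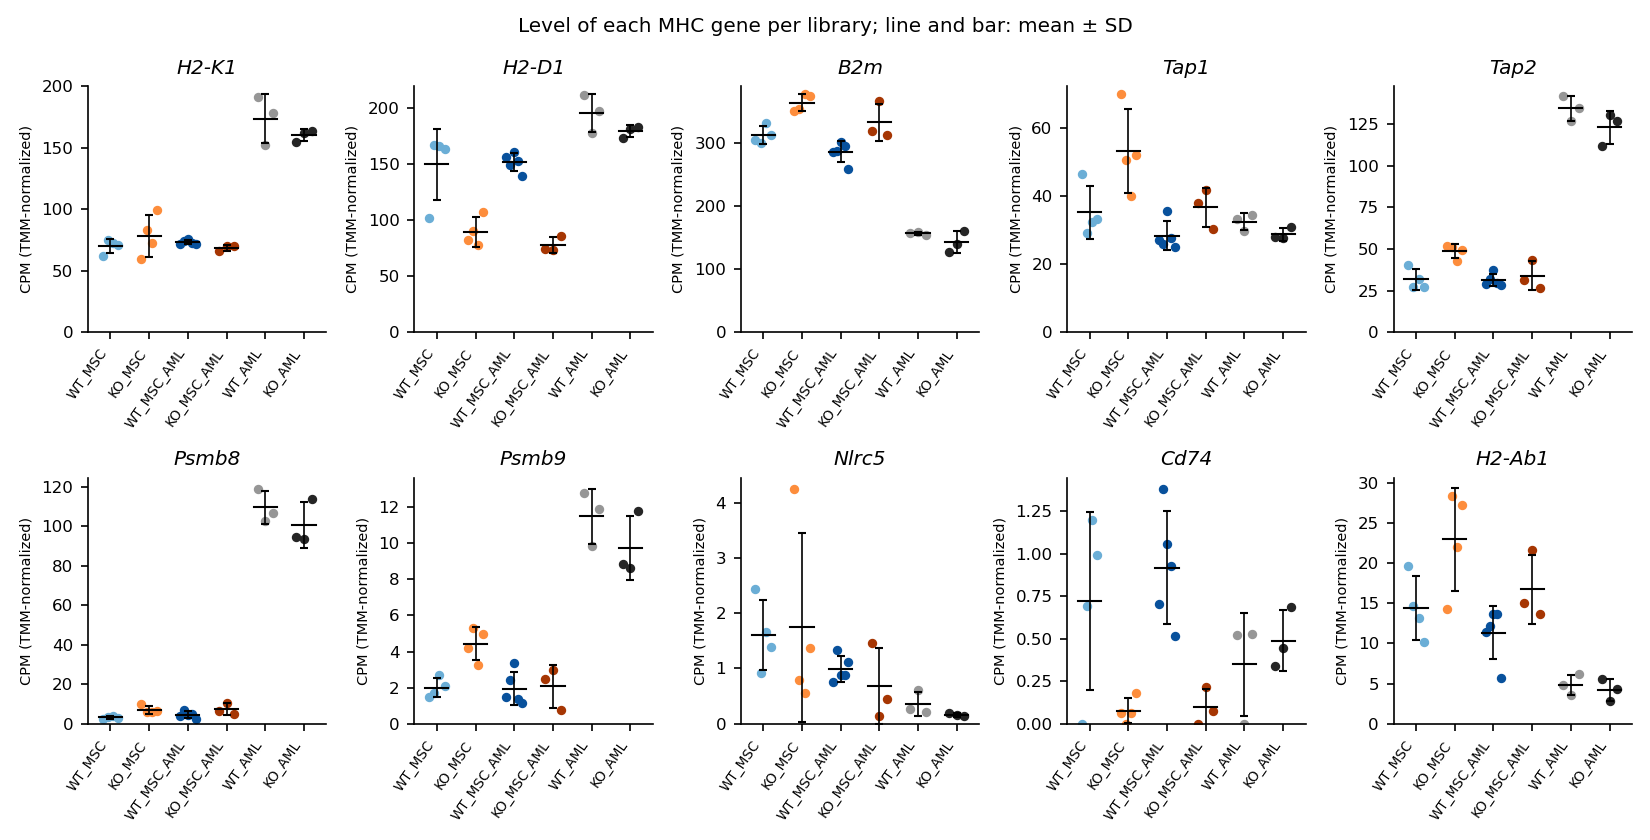
Level of each of the 10 genes in every library, in TMM-normalized CPM on linear axes from 0, by group; the black line and bar are the group mean and SD. H2-D1 was at 73.1 to 107 CPM in KO_MSC and KO_MSC_AML against 102 to 167 CPM in WT_MSC and WT_MSC_AML, Cd74 stayed under 0.3 CPM in KO stroma, and H2-K1, Tap2, Psmb8 and Psmb9 were highest in AML cells.

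Lama4-/- MSC cultured alone held more transcript of the peptide transporter subunit Tap2 and of the immunoproteasome subunits Psmb8 and Psmb9 than wild type MSC, and less of the heavy chain H2-D1. The increases were 1.55-fold for Tap2, 2.17-fold for Psmb8 and 2.24-fold for Psmb9, and the decrease of H2-D1 was 1.67-fold. The other heavy chain, H2-K1, did not pass the test. Of the 9 genes tested, 3 were higher and 1 was lower (adjusted p under 0.05, edgeR's quasi-likelihood test with Benjamini-Hochberg adjustment over all genes). Over all 13344 genes tested, 11.6% passed, 5.24% higher and 6.34% lower. The median log2 fold change of the 9 genes was 0.61, against 0.01 over all genes tested. Of the 9 genes, 4 had KO_MSC and WT_MSC libraries that did not overlap, namely B2m, Tap2, Psmb8 and Psmb9, all higher, where 18.4% of all genes did not overlap in either direction.

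These calls rest on particular libraries. Without WT_MSC replicate 1, 7 of the genes passed, where 46.0% of all genes did. In the libraries with Ddx3y and without Xist, which are WT_MSC replicates 2 to 4 and KO_MSC replicates 2 and 4, 9 of the 10 genes passed, where 60% of all genes did (8178 of 13622). Leaving out WT_MSC replicate 2, 3 or 4 or KO_MSC replicate 1, 2 or 4 left 0 of the genes past the threshold by the same edgeR test, and leaving out KO_MSC replicate 3 left 2. Calls over all genes moved in the same fits. They were 0.407% to 0.620% without WT_MSC replicate 2, 3 or 4, 0.899% and 0.783% without KO_MSC replicate 2 or 4, and 6.09% and 5.57% without KO_MSC replicate 1 or 3. The gain and loss of calls is thus one of all genes and not a result about these 10. In the authors' deposited table, by DESeq2's Wald test, 5 of the genes were higher and 2 lower in KO_MSC, where 26.9% of all genes with an adjusted p passed. Those were Tap1, Tap2, Psmb8, Psmb9 and B2m on the higher side and H2-D1 and Cd74 on the lower.

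Summed levels of markers of other cell types also differed between the genotypes in MSC alone. The summed level of 7 endothelial markers was 1.19 to 6.90 CPM in WT_MSC and 9.35 to 23.6 CPM in KO_MSC, with Cldn5 at 0 in both, and 1.82 to 4.89 CPM in WT_MSC_AML and 6.77 to 19.8 CPM in KO_MSC_AML. Of the 7 only 1 was over a mean of 1 CPM in WT_MSC and in WT_MSC_AML, and 2 were in KO_MSC and in KO_MSC_AML. That of 12 macrophage and monocyte markers was 20.0 to 21.3 CPM in WT_MSC and 27.7 to 42.5 CPM in KO_MSC, with 4 of the 12 over a mean of 1 CPM in each. Among these 4, Lyz2 had a mean of 7.16 CPM in WT_MSC and 25.2 CPM in KO_MSC, Csf1r 4.75 and 2.03 CPM, Cd14 6.96 and 7.04 CPM, and Cd68 1.41 and 1.58 CPM, so the larger sum lay with Lyz2. After co-culture the sums overlapped, at 15.3 to 18.7 CPM in WT_MSC_AML and 12.4 to 21.9 CPM in KO_MSC_AML. Their part in the results was not tested.

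H2-D1 and H2-K1 encode the classical class I heavy chains of this strain. H2-D1 (Entrez gene 14964; chromosome 17, 35263094 to 35267497, plus strand) stood at 102, 167, 166 and 163 CPM in WT_MSC replicates 1 to 4 and at 81.7, 90.1, 77.3 and 107 CPM in KO_MSC. The groups overlapped because WT_MSC replicate 1, at 102 CPM, was below KO_MSC replicate 4, and the other WT_MSC libraries were all above 160 CPM. The log2 fold change was -0.74 (SE 0.18, adjusted p = 0.0391 by edgeR). Over 14 alternatives the adjusted p ran from 2.03e-08 to 0.117 and passed in 6, and each leave-one-out fold change lay between -0.88 and -0.68. Within the libraries with Ddx3y and without Xist the log2 fold change was -0.75.

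After co-culture the H2-D1 difference was clear of the spread between libraries. WT_MSC_AML stood at 156, 149, 160.2, 152 and 139 CPM and KO_MSC_AML at 73.9, 73.1 and 85.5 CPM. Every WT_MSC_AML library was above every KO_MSC_AML library. The log2 fold change was -0.95 (SE 0.10, adjusted p = 7.03e-05 by edgeR), a 1.93-fold lower level, and it passed in all 13 alternatives run, with a largest adjusted p of 0.0118.

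H2-K1 (Entrez gene 14972; chromosome 17, 33996012 to 34000619, minus strand) did not follow H2-D1. It stood at 62.1, 75.0, 72.9 and 71.0 CPM in WT_MSC and at 59.1, 82.7, 72.4 and 99.0 CPM in KO_MSC, with a log2 fold change of 0.17 (SE 0.15, adjusted p = 0.451 by edgeR). In co-cultured MSC it was at 71.6 to 75.6 CPM in WT_MSC_AML and 65.8 to 69.9 CPM in KO_MSC_AML, with a log2 fold change of -0.08 (SE 0.08, adjusted p = 0.504). The KO and WT libraries did not overlap there, by a margin of under 2 CPM.

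The ratio of H2-D1 to H2-K1 counts within a library does not depend on scaling between libraries. It was chosen after the values were seen and carries no test. The ratio was 1.64, 2.23, 2.28 and 2.30 in WT_MSC and 1.93 to 2.18 in WT_MSC_AML. In KO_MSC it was 1.38, 1.09, 1.07 and 1.08, and in KO_MSC_AML 1.12, 1.05 and 1.22. In AML cells the ratio was 1.10, 1.16 and 1.11 in WT_AML and 1.12 in each KO_AML library, and the KO stroma libraries lay on both sides of these values. The 2 MSC libraries nearest to the other genotype were replicate 1 of WT_MSC and replicate 1 of KO_MSC. H2-D1 shares 5.56% and H2-K1 shares 3.1% of their 75-base words with other annotated genes, among them H2-Q7 and H2-T23, so reads of these stretches could be split between genes.

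**Figure D2:**
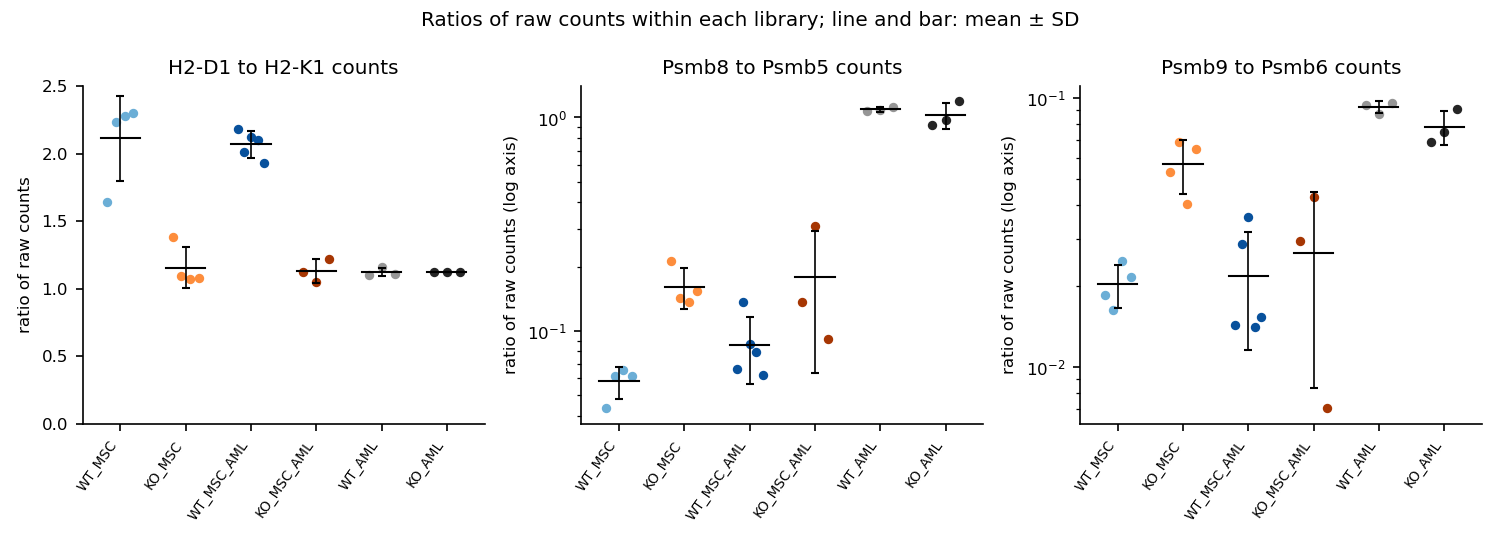
Ratio of raw counts within each library, by group, for H2-D1 to H2-K1 on a linear axis from 0 and for the immunoproteasome subunits Psmb8 and Psmb9 to their constitutive counterparts Psmb5 and Psmb6 on log axes; line and bar are mean and SD. The H2-D1 to H2-K1 ratio was 1.64 to 2.30 in wild type stroma and 1.05 to 1.38 in KO stroma, and the Psmb8 to Psmb5 ratio was 0.0433 to 0.310 in MSC against 0.921 to 1.19 in AML cells.

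Among the other class I heavy chains of the list (18 listed, 12 tested in MSC alone and 13 after co-culture), H2-M3 was the other gene that passed. Over all genes 11.6% passed in MSC alone and 31.4% after co-culture. H2-M3 presents formylated peptides, and it was higher in KO stroma alone (log2 fold change 1.38, SE 0.16, adjusted p = 0.00686 by edgeR) and after co-culture (1.04, SE 0.19, adjusted p = 0.00218). The median log2 fold change of the list was 0.03 alone and -0.16 after co-culture, near the 0.01 and -0.01 of all genes.

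B2m (Entrez gene 12010; chromosome 2, 122147687 to 122153082, plus strand), the shared light chain, was the most abundant of the 10 genes per kilobase of exon in every group. It stood at 305, 300.3, 332 and 313 CPM in WT_MSC and at 350.5, 354, 377 and 374 CPM in KO_MSC. All KO_MSC libraries were above all WT_MSC libraries, but the difference was small, with a log2 fold change of 0.23 (SE 0.09) and an edgeR adjusted p of 0.102. After co-culture the levels were 259 to 302 CPM in WT_MSC_AML and 312 to 366 CPM in KO_MSC_AML, again without overlap, with a log2 fold change of 0.24 (SE 0.10, adjusted p = 0.104).

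Tap1 and Tap2 encode the subunits of the peptide transporter. Tap2 (Entrez gene 21355; chromosome 17, 34204479 to 34216321, plus strand) stood at 40.1, 27.4, 32 and 27.2 CPM in WT_MSC and at 52, 51.1, 42.5 and 49.3 CPM in KO_MSC, without overlap. Its log2 fold change was 0.64 (SE 0.14, adjusted p = 0.0311 by edgeR), and the adjusted p ran from 2.24e-07 to 0.105 over 14 alternatives. After co-culture Tap2 stood at 28.6 to 37.2 CPM in WT_MSC_AML and at 31.3, 43.5 and 26.8 CPM in KO_MSC_AML, and the groups overlapped (log2 fold change 0.14, SE 0.16, adjusted p = 0.56).

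Tap1 (Entrez gene 21354; chromosome 17, 34187556 to 34197225, plus strand) stood at 46.7, 29.1, 32.3 and 33.2 CPM in WT_MSC and at 70.2, 50.8, 40.2 and 52.2 CPM in KO_MSC. The groups overlapped through WT_MSC replicate 1 and KO_MSC replicate 3, and the log2 fold change was 0.61 (SE 0.20, adjusted p = 0.0769 by edgeR). It passed in 4 of 14 alternatives, among them DESeq2's Wald test (adjusted p = 0.0392). Over the 14 the adjusted p ran from 6.7e-07 to 0.206. After co-culture it stood at 27.2, 25.9, 35.8, 27.8 and 25.1 CPM in WT_MSC_AML and at 38.1, 41.8 and 30.3 CPM in KO_MSC_AML, with a log2 fold change of 0.39 (SE 0.15, adjusted p = 0.0698).

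In the wider list of peptide loading genes, Tap2 was higher in KO_MSC, and the chaperones Hspa5 (log2 fold change -0.57, SE 0.12, adjusted p = 0.03 by edgeR) and Calr (-0.46, SE 0.11, adjusted p = 0.0346) were lower. So 3 of 10 passed, where 11.6% of all genes did. Calr encodes calreticulin, which holds the heavy chain while peptide is loaded. After co-culture Hspa5 alone of the 10 passed, at -0.58 (SE 0.17, adjusted p = 0.0244), where 31.4% of all genes passed.

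Psmb8 and Psmb9 encode catalytic subunits that replace Psmb5 and Psmb6 in the immunoproteasome. Psmb8 (Entrez gene 16913; chromosome 17, 34198195 to 34201454, plus strand) stood at 2.33, 3.61, 4.07 and 2.97 CPM in WT_MSC and at 9.78, 5.89, 5.83 and 6.42 CPM in KO_MSC. Psmb9 (Entrez gene 16912; chromosome 17, 34182030 to 34187330, minus strand) stood at 1.5, 1.7, 2.69 and 2.11 CPM in WT_MSC and at 4.19, 5.32, 3.26 and 4.99 CPM in KO_MSC. Neither gene's groups overlapped.

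The log2 fold change in MSC alone was 1.12 for Psmb8 (SE 0.26, adjusted p = 0.034 by edgeR) and 1.16 for Psmb9 (SE 0.27, adjusted p = 0.0347). Over 14 alternatives the adjusted p ran from 0.00135 to 0.104 for Psmb8, which passed in 6, and from 0.000316 to 0.116 for Psmb9, which passed in 7. After co-culture Psmb8 stood at 3.63, 7.12, 4.54, 4.64 and 2.52 CPM in WT_MSC_AML and at 6.53, 10.6 and 4.78 CPM in KO_MSC_AML, with a log2 fold change of 0.72 (SE 0.35, adjusted p = 0.137). Psmb9 stood at 1.12 to 3.36 CPM in WT_MSC_AML and at 2.46, 3.00 and 0.735 CPM in KO_MSC_AML, with a log2 fold change of 0.11 (SE 0.50, adjusted p = 0.891). In both genes the co-cultured groups overlapped.

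Both subunits had far fewer raw counts than their constitutive counterparts in MSC, not set per exon length. The ratio of Psmb8 to Psmb5 counts was 0.0579 ± 0.0100 (SD, n = 4) in WT_MSC and 0.161 ± 0.0353 (SD, n = 4) in KO_MSC, and the lowest KO_MSC library, at 0.136, was above the highest WT_MSC library, at 0.0658. The ratio of Psmb9 to Psmb6 counts was 0.0203 ± 0.00369 (SD, n = 4) in WT_MSC and 0.0566 ± 0.0129 (SD, n = 4) in KO_MSC. Psmb10, the third inducible subunit, showed no such shift, with a ratio to Psmb7 of 0.156 ± 0.0361 (SD, n = 4) in WT_MSC and 0.142 ± 0.0162 (SD, n = 4) in KO_MSC. Among 14 constitutive proteasome genes, Psma7 (log2 fold change -0.32, SE 0.08, adjusted p = 0.0388 by edgeR) and Psmb5 (-0.36, SE 0.09, adjusted p = 0.0445) were lower in KO_MSC, where 11.6% of all genes passed. The median of the list was -0.12. Reads were counted with a strand setting that the sources used here do not give, and Psmb8 shares exonic bases with the antisense gene Gm20496 and Psmb9 with Tap1, so reads there cannot be told apart without strand.

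**Figure D3:**
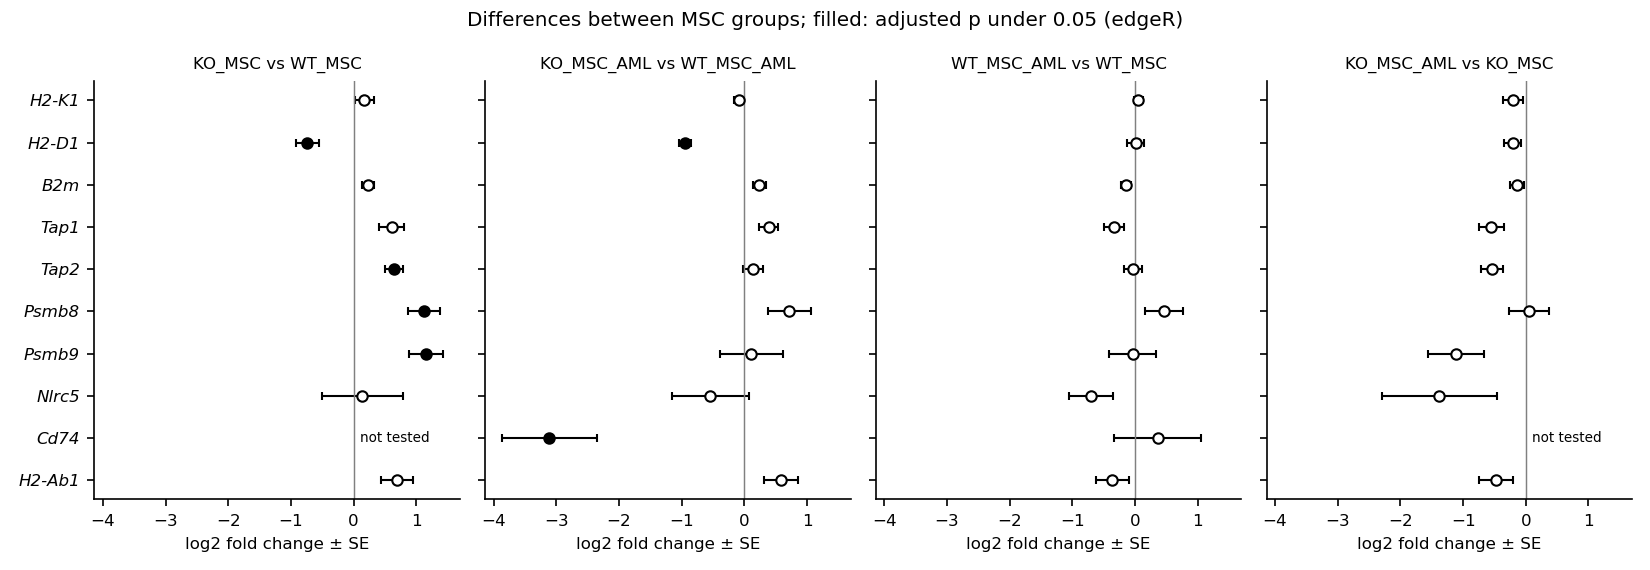
Log2 fold change of each gene in the 4 comparisons between MSC groups, first group over second, with the standard error of the edgeR fit as bars; filled points had an adjusted p under 0.05 and Cd74 was not tested in 2 comparisons. H2-D1 is the gene filled in both KO against WT panels, at -0.74 and -0.95, and no point is filled in the panels of co-cultured against lone MSC.

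Nlrc5 encodes the transactivator of class I genes. It was scarce in stroma, at 2.44, 0.913, 1.67 and 1.39 CPM in WT_MSC and at 4.25, 0.791, 0.564 and 1.37 CPM in KO_MSC. KO_MSC replicate 1 alone lay above all WT_MSC libraries, and the log2 fold change was 0.14 (SE 0.64, adjusted p = 0.889 by edgeR). After co-culture it stood at 0.758 to 1.33 CPM in WT_MSC_AML and at 1.46, 0.143 and 0.441 CPM in KO_MSC_AML (log2 fold change -0.54, SE 0.61, adjusted p = 0.533). In the list of MHC regulators, Ezh2, the catalytic subunit of the repressive PRC2 complex, was the gene of 13 tested that passed in MSC alone, where 11.6% of all genes passed. It was lower in KO_MSC (log2 fold change -1.82, SE 0.38, adjusted p = 0.0307). After co-culture 2 of 13 were higher and 4 lower, in a comparison where 31.4% of all genes passed. Irf1, an interferon regulatory factor, was higher (0.58, SE 0.16, adjusted p = 0.021), as was Nfkb1 (0.30, SE 0.09, adjusted p = 0.0278). Ezh2 (-1.45, SE 0.14, adjusted p = 4.36e-05) and the NF-kappaB subunit Rela (-0.54, SE 0.08, adjusted p = 0.000998) were the 2 lower ones with the smallest p.

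Cd74 encodes the invariant chain, which escorts class II molecules through the cell. It had few counts. It stood at 0, 0.695, 1.20 and 0.991 CPM in WT_MSC and at 0.0607, 0, 0.0627 and 0.178 CPM in KO_MSC, and 3 of the 4 WT_MSC libraries were above every KO_MSC library while WT_MSC replicate 1 had none. The gene did not pass the filter on low counts there and was not tested. Summed over libraries it had 51 counts in WT_MSC and 5 in KO_MSC, a ratio of 8.69 per count sequenced (exact 95% interval 3.49 to 27.9, counting error only).

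After co-culture Cd74 stood at 0.704, 1.38, 1.06, 0.928 and 0.514 CPM in WT_MSC_AML and at 0, 0.214 and 0.0735 CPM in KO_MSC_AML, without overlap. The log2 fold change was -3.11 (SE 0.76, adjusted p = 0.0109 by edgeR), and the adjusted p ran from 0.00306 to 0.0617 over 13 alternatives, of which 12 passed. The summed counts were 85 and 4, a ratio of 9.18 (exact 95% interval 3.46 to 34.5). Of the 10 genes tested in that comparison, H2-D1 and Cd74 passed, both lower in KO_MSC_AML, where 31.4% of all 13710 genes passed in either direction and 14.5% were lower. The median over the 10 genes was 0.12 and over all genes -0.01. The libraries did not overlap for 4 of the 10 genes, H2-K1, H2-D1, B2m and Cd74, against 33.5% of all genes. Without KO_MSC_AML replicate 3, or without WT_MSC_AML replicate 3, Tap1 also passed, at log2 fold changes of 0.52 and 0.50.

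H2-Ab1 (Entrez gene 14961; chromosome 17, 34263227 to 34269418, plus strand), a class II beta chain, did not follow Cd74. It stood at 19.7, 14.6, 13.1 and 10.2 CPM in WT_MSC and at 14.3, 28.3, 22 and 27.2 CPM in KO_MSC, with a log2 fold change of 0.69 (SE 0.26, adjusted p = 0.108 by edgeR). After co-culture it stood at 11.4, 12.2, 13.7, 13.6 and 5.74 CPM in WT_MSC_AML and at 15.0, 21.6 and 13.6 CPM in KO_MSC_AML (log2 fold change 0.58, SE 0.27, adjusted p = 0.126). Both pairs of groups overlapped. Its partner alpha chain H2-Aa was at 0 in all KO_MSC and KO_MSC_AML libraries and reached 0.0542 CPM at most in the wild type ones. Ciita, the transactivator of class II genes, was at 0 in all WT_MSC libraries and at most 0.425 CPM in any other MSC library. Some markers of the cells that commonly carry class II were at 0 in every MSC group, namely C1qa and C1qb of macrophages, Flt3, Siglech and Cd209a of dendritic cells, and Pax5 of B cells. Other markers of the same lists had counts. In WT_MSC Cd14 had a mean of 6.96 CPM, Lyz2 of 7.16 CPM and Csf1r of 4.75 CPM, and the dendritic cell marker Zbtb46 was at 0.635 CPM in WT_MSC and 1.21 CPM in KO_MSC. The summed level of the 9 dendritic cell markers was 0.542 to 2.46 CPM over the MSC libraries. The B cell list reached 123 to 268 CPM there through Ebf1, which bone marrow stroma is known to express.

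After co-culture, where 31.4% of all genes passed, 2 of 7 tested class II pathway genes were higher in KO_MSC_AML, the lysosomal thiol reductase Ifi30 (log2 fold change 0.84, SE 0.14, adjusted p = 0.00113 by edgeR) and the protease Lgmn (0.43, SE 0.13, adjusted p = 0.0274). Cd74 and H2-DMb1, a chain of the class II peptide editor (-1.22, SE 0.39, adjusted p = 0.0366), were lower. In MSC alone the median log2 fold change of this list was 0.21 over 7 tested genes.

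Genes of interferon gamma signalling were higher in KO stroma more often than lower. In MSC alone 5 of 18 passed, all higher, where 11.6% of all genes passed, and their list's median log2 fold change was 0.61 against 0.01 over all genes. The guanylate binding protein genes Gbp3 (log2 fold change 1.92, SE 0.32, adjusted p = 0.0187 by edgeR) and Gbp5 (3.78, SE 0.77, adjusted p = 0.03) had the smallest p. Without WT_MSC replicate 1 the count was 9 higher and 1 lower of 18, where 46.0% of all genes passed. Without KO_MSC replicate 1 it was 1 of 18, where 6.09% passed, and within the libraries with Ddx3y and without Xist it was 12 higher and 1 lower of 19, where 60% passed. After co-culture 8 of 17 were higher and 1 lower, where 31.4% of all genes passed, with a median of 0.71. The higher ones were led by Gbp2 (2.06, SE 0.24, adjusted p = 0.000177) and the receptor chain Ifngr2 (0.77, SE 0.11, adjusted p = 0.000676), and the lower one was the phosphatase Ptpn2 (-1.05, SE 0.13, adjusted p = 0.000185). Without KO_MSC_AML replicate 3 the count was 11 higher and 1 lower of 18, where 32.3% of all genes passed.

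Costimulatory and checkpoint ligands, which T cells read beside the MHC, and ligands of natural killer cell receptors were counted too. In MSC alone Icosl was higher in KO_MSC (log2 fold change 1.73, SE 0.46, adjusted p = 0.0466 by edgeR), the 1 gene of 9 tested that passed, where 11.6% of all genes passed. This call was lost without KO_MSC replicate 1. Without WT_MSC replicate 1 the count was 5 higher and 1 lower of 9, where 46.0% of all genes passed, and within the libraries with Ddx3y and without Xist it was 7 higher, where 60% passed. After co-culture 5 of 9 were higher, where 31.4% of all genes passed, with Cd80 (3.95, SE 0.19, adjusted p = 3.33e-07) and Cd276 (0.83, SE 0.12, adjusted p = 0.000647) having the smallest p. Among ligands of natural killer cell receptors Ulbp1 passed after co-culture, 5.01 higher on the log2 scale (SE 0.30, adjusted p = 1.65e-06), out of 4 tested, where 31.4% of all genes passed.

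None of the 10 genes passed the test between co-cultured MSC and MSC alone, in stroma of either genotype. In wild type stroma 0 of 10 genes passed with edgeR, 0 had an unadjusted p under 0.05 and 0 passed with DESeq2, where 0.744% of all genes passed with edgeR. Over all genes 2459 of 13439 had an unadjusted p under 0.05, and 544 of 16058 passed with DESeq2. The log2 fold changes of WT_MSC_AML over WT_MSC ran from -0.70 for Nlrc5 (SE 0.35, adjusted p = 0.306) to 0.46 for Psmb8 (SE 0.30, adjusted p = 0.425). H2-D1 was at 0.01 (SE 0.14), H2-K1 at 0.05 (SE 0.07), B2m at -0.14, Tap1 at -0.33, Tap2 at -0.03, Psmb9 at -0.04, Cd74 at 0.36 and H2-Ab1 at -0.36. In Lama4-/- stroma 0 of 9 genes passed with edgeR and 0 with DESeq2, where 0.743% of all genes passed with edgeR and 1781 of 15242 with DESeq2. Tap1, Tap2 and Psmb9, 3 of the 9, had an unadjusted p under 0.05, as did 3295 of all 13452 genes tested. Tap1 was at -0.55 (SE 0.20, adjusted p = 0.143), Tap2 at -0.54 (SE 0.17, adjusted p = 0.116) and Psmb9 at -1.11 (SE 0.45, adjusted p = 0.183). H2-K1 and H2-D1 were at -0.21, B2m at -0.14, Psmb8 at 0.05, Nlrc5 at -1.38 and H2-Ab1 at -0.47, and Cd74 was not tested. Psmb9 was the gene of the 9 whose KO_MSC_AML libraries, at 0.735 to 3.00 CPM, all lay below the KO_MSC libraries, at 3.26 to 5.32 CPM. In the authors' deposited table Tap1, Tap2 and Psmb9 were lower in KO_MSC_AML than in KO_MSC at adjusted p of 0.0409, 0.0164 and 0.0343, where 15.9% of all genes with an adjusted p passed. All KO_MSC_AML libraries held Xist without Ddx3y above 0.929 CPM, and of KO_MSC only replicate 3 held Xist without Ddx3y. That replicate was the lowest of KO_MSC for Tap1, Tap2 and Psmb9, at 40.2, 42.5 and 3.26 CPM. Co-culture and sex of the donor cells are thus not balanced in Lama4-/- stroma, and the part of sex was not tested.

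Whether co-culture changed the genes differently in the stroma of either genotype was tested as an interaction over all 16 MSC libraries. It passed for 0 of the 10 genes with edgeR and with DESeq2, and for 0% of 14247 genes with edgeR and 30 of 14072 with DESeq2. Tap2, at -0.51 (SE 0.23, adjusted p = 0.61), was the 1 gene of the 10 with an unadjusted p under 0.05, where 1102 of all 14247 genes had one. Psmb9 was at -1.07 (SE 0.60, adjusted p = 0.698). The other estimates were -0.26 for H2-K1, -0.22 for H2-D1, -0.01 for B2m, -0.23 for Tap1, -0.41 for Psmb8, -0.69 for Nlrc5, -0.06 for Cd74 and -0.11 for H2-Ab1 on the log2 scale. In Lama4-/- stroma Ezh2 was the 1 gene of the 9 other lists that passed with co-culture, at 0.95 (SE 0.16, adjusted p = 0.0499 by edgeR). The comparisons with MSC alone share the WT_MSC and KO_MSC libraries with the genotype comparison, so their values are not independent of them. Sex-linked transcripts are not balanced over the groups of the interaction either.

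MSC sorted from co-culture held traces of AML transcripts, which bears on the genes that AML cells express strongly. Over 67 genes with a mean of at least 100 CPM in each AML group that stayed below 1 CPM in all 8 libraries of lone MSC, the median level relative to AML cells was 0.842 to 3.05% in WT_MSC_AML and 0.536 to 1.77% in KO_MSC_AML. The choice of genes fixes a share near 0 in lone MSC, so no share is given for those. The AML level of Psmb8 multiplied by that share came to a mean of 1.65 CPM in WT_MSC_AML, whose own mean was 4.49 CPM against 3.25 CPM alone. In KO_MSC_AML it came to 1.04 CPM, of a mean of 7.29 CPM. For H2-D1 it came to 2.94 and 1.85 CPM and for Tap2 to 2.03 and 1.27 CPM. Its part in the results was not tested. In bulk libraries, fewer cells of a type and less RNA per cell cannot be told apart.

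AML cells carried far more Psmb8, Psmb9 and Tap2 than the stroma they were cultured with, more H2-K1 and H2-D1, and less B2m and H2-Ab1. Of 10 genes tested in the wild type co-cultures 5 were higher in WT_AML than in WT_MSC_AML and 3 were lower, where 82.0% of all genes passed. In the KO co-cultures 5 of 8 tested were higher and 2 lower, where 79.9% of all genes passed. The share of the genes that passed is thus close to that of all genes, and the sizes are the description.

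Psmb8 stood at 119, 103 and 107 CPM in WT_AML and at 94.8, 93.4 and 114 CPM in KO_AML. The log2 fold change over co-cultured stroma was 4.62 (SE 0.22, adjusted p = 3.44e-09 by edgeR) in wild type co-cultures, or 24.6-fold, and 3.81 (SE 0.29, adjusted p = 1.68e-05) in KO co-cultures, or 14.0-fold. Psmb9 stood at 9.83 to 12.8 CPM in WT_AML and 8.61 to 11.8 CPM in KO_AML, 2.57 (SE 0.31) and 2.26 (SE 0.45) above stroma on the log2 scale. The ratio of Psmb8 to Psmb5 counts was 1.09 ± 0.0263 (SD, n = 3) in WT_AML and 1.03 ± 0.142 (SD, n = 3) in KO_AML. The ratio of Psmb9 to Psmb6 counts stayed at 0.0923 ± 0.00474 (SD, n = 3) in WT_AML. These are ratios of raw counts not set per exon length, so their sizes are not compared between the 2 pairs of genes. Constitutive proteasome genes were also higher in AML cells, 13 of 14 in wild type co-cultures with a median log2 fold change of 0.99 and 14 of 14 in KO co-cultures with a median of 1.01. Over all genes 82.0% and 79.9% passed in either direction, and the medians were -0.08 and -0.05.

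Tap2 stood at 142, 127 and 135 CPM in WT_AML and at 112, 130.3 and 127 CPM in KO_AML, 2.12 (SE 0.10, adjusted p = 1.78e-09 by edgeR) and 1.88 (SE 0.19, adjusted p = 4.55e-05) above stroma on the log2 scale. Tap1, the other subunit of the same transporter, was at 29.7 to 34.6 CPM in WT_AML and 27.6 to 30.9 CPM in KO_AML, inside the range of co-cultured stroma. Its log2 fold change was 0.20 (SE 0.13, adjusted p = 0.149) in wild type co-cultures and -0.33 (SE 0.15, adjusted p = 0.0737) in KO co-cultures. The ratio of Tap2 to Tap1 counts, also chosen after the values were seen, was 0.740 to 1.23 over the 16 MSC libraries and 3.91 to 4.72 over the 6 AML libraries. Both genes share exonic bases with genes on the other strand, and the strand setting is not given.

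H2-K1 stood at 191, 152 and 178 CPM in WT_AML and at 155, 162 and 164 CPM in KO_AML, 1.26 (SE 0.08, adjusted p = 3.97e-08 by edgeR) and 1.25 (SE 0.09, adjusted p = 7.49e-06) above stroma. H2-D1 stood at 211, 177 and 197 CPM in WT_AML and at 173, 181 and 183 CPM in KO_AML. Its distance to the stroma was 0.37 (SE 0.08, adjusted p = 0.00123) in wild type co-cultures and 1.23 (SE 0.10, adjusted p = 1.4e-05) in KO co-cultures. The AML means were 195 and 179 CPM, and the stroma levels were 151 and 77.5 CPM. B2m ran the other way, at 154 to 158 CPM in WT_AML and 127 to 161 CPM in KO_AML, with log2 fold changes of -0.86 (SE 0.08, adjusted p = 1.02e-06) and -1.20 (SE 0.14, adjusted p = 8.64e-05).

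H2-Ab1 stood at 3.58 to 6.13 CPM in WT_AML and 2.80 to 5.53 CPM in KO_AML, with log2 fold changes of -1.22 (SE 0.29, adjusted p = 0.00197 by edgeR) and -1.98 (SE 0.30, adjusted p = 0.000471) from stroma, although WT_AML and WT_MSC_AML libraries overlapped. Nlrc5 stood at 0.261, 0.615 and 0.211 CPM in WT_AML and at 0.202, 0.148 and 0.137 CPM in KO_AML. It was lower in WT_AML than in WT_MSC_AML (log2 fold change -1.47, SE 0.47, adjusted p = 0.0127), a call that was lost without WT_AML replicate 1 or 3. With 27 and 9 summed counts in KO_MSC_AML and KO_AML it was not tested there. The ratio of Nlrc5 was 4.21 (exact 95% interval 1.92 to 10.2, counting error only). The libraries of these groups overlapped. KO_MSC_AML replicates 1 to 3 stood at 1.46, 0.143 and 0.441 CPM, so the ratio rests largely on replicate 1. Cd74 stood at 0.523, 0 and 0.528 CPM in WT_AML and at 0.337, 0.443 and 0.686 CPM in KO_AML, with a log2 fold change from wild type stroma of -1.31 (SE 0.67, adjusted p = 0.0879). In KO co-cultures Cd74 was not tested, and there the AML cells held more of it than the stroma, with every KO_AML library above every KO_MSC_AML library (0 to 0.214 CPM) and summed counts of 29 and 4. AML cells held other class II pathway genes at higher levels than stroma, among them H2-DMa (log2 fold change 3.37, SE 0.20, adjusted p = 1.72e-08 in wild type co-cultures), a chain of the peptide editor. The protease Lgmn was lower (log2 fold change -6.96, SE 0.29, adjusted p = 8.96e-10).

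**Figure D4:**
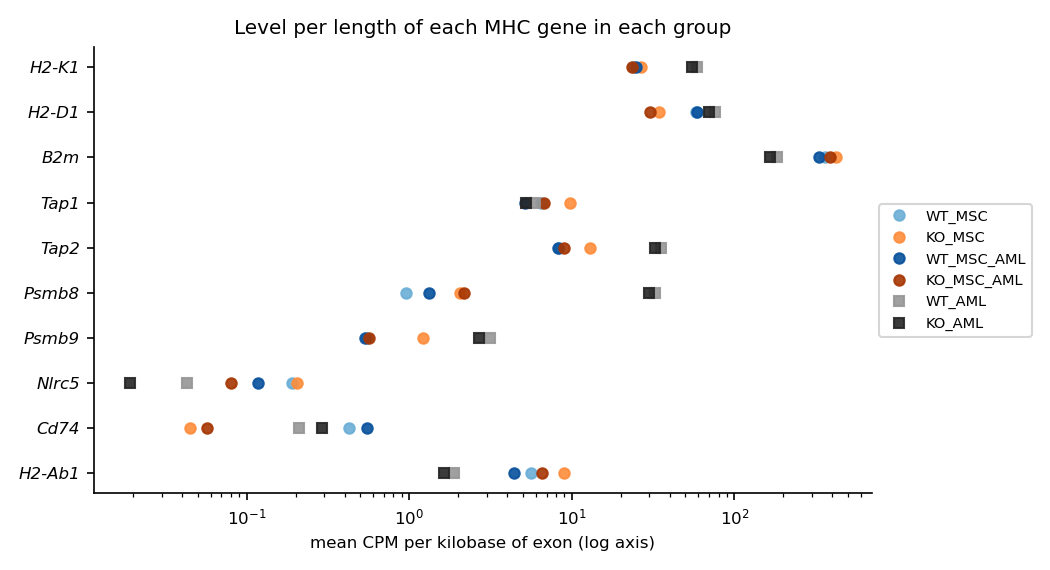
Mean level of each gene in each group in CPM per kilobase of union exon length, on a log axis; circles are MSC and squares AML cells. B2m was highest in every group, and the squares lie to the right of the circles for H2-K1, H2-D1, Tap2, Psmb8 and Psmb9 and to the left for B2m, Nlrc5 and H2-Ab1.

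No difference was detected in the genes tested between AML cells from co-cultures with stroma of either genotype. Of 9 genes tested between KO_AML and WT_AML 0 passed with edgeR, 0 had an unadjusted p under 0.05 and 0 passed with DESeq2, where 0.0482% of all genes passed with edgeR. Over all genes 715 of 12444 had an unadjusted p under 0.05, and 20 of 16439 passed with DESeq2. The log2 fold changes ran from -0.21 for Psmb9 (SE 0.15, adjusted p = 0.93) to 0.47 for Cd74 (SE 0.75, adjusted p = 0.97). H2-K1 and H2-D1 were both at -0.10 (SE 0.07 and 0.06), Psmb8 at -0.10, B2m and Tap2 at -0.11, Tap1 at -0.15 and H2-Ab1 at -0.18. Nlrc5 did not pass the filter on low counts, with 22 summed counts in WT_AML and 9 in KO_AML. Its KO_AML libraries, at 0.137 to 0.202 CPM, all lay below its WT_AML libraries, at 0.211 to 0.615 CPM, and this was not tested. A p above the threshold does not show that the groups are alike.

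Set per kilobase of exon, the order of mean levels differed between stroma and AML cells. In WT_MSC B2m led at 363 CPM per kilobase, followed by H2-D1 at 58 and H2-K1 at 23.9. Tap2 at 8.38, Tap1 at 6.45 and H2-Ab1 at 5.61 CPM per kilobase came next, and Psmb8, Psmb9, Cd74 and Nlrc5 were at 0.960, 0.547, 0.429 and 0.189. In KO_MSC H2-D1 was at 34.5 and H2-K1 at 26.7 CPM per kilobase. In WT_AML B2m at 182 was followed by H2-D1 at 75.7, H2-K1 at 59.2, Tap2 at 35.6 and Psmb8 at 32.5 CPM per kilobase, with Tap1 at 5.94.

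The genes most like Tap1 and Cd74 over the 16 MSC libraries were taken by Pearson correlation of log2(CPM + 1), as a description, since the libraries share groups. Of 9906 genes with a mean of at least 3 on that scale, the nearest to Tap1 were Serpina3n (r = 0.967), Vkorc1 (r = 0.965), Fuca1 (r = 0.964), Cd302 (r = 0.963) and Fzd4 (r = 0.961). Serpina3n, a serpin of the acute phase, stood at 869 CPM in WT_MSC, 3054 CPM in KO_MSC, 258 CPM in WT_MSC_AML and 972 CPM in KO_MSC_AML. Of 12556 genes with a mean of at least 1, the nearest to Cd74 were Cops2 (r = 0.961), Mchr1 (r = 0.956), Tfcp2l1 (r = 0.952), Sf3b2 (r = 0.947) and Ddx52 (r = 0.945). Tfcp2l1, a transcription factor gene, stood at 3.86 CPM in WT_MSC and 7.65 CPM in WT_MSC_AML, at 0.0632 CPM in KO_MSC and at 0 in KO_MSC_AML.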

How the data were processed

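RNA-seq was deposited for 22 libraries as a table of raw counts per gene, made by the authors with STAR and featureCounts per the file headers. The submitters' processing notes name STAR 2.6.1d, FastQC 0.11.8, MultiQC 1.7 and GRCm38/mm10, and the strand setting is not given in the sources used here. Per the labels' protocols, SMART-Seq v4 cDNA was made into Nextera XT libraries, read as single ends of 75 bases. The authors' log2 fold changes and their adjusted p-values, from DESeq2 per the file headers, are quoted where named. The 1275 rows with an Entrez ID and no symbol (0.501% to 0.825% of the counts of a library) stayed in library sizes and tests.

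Each comparison was fitted on the counts of its own groups with edgeR 4.0.16 (R 4.3.3), TMM, filterByExpr and the robust quasi-likelihood test, with Benjamini-Hochberg adjustment over all genes and a threshold of 0.05. The interaction used all 16 MSC libraries. The fits were also run on simulated counts with planted changes. Those counts held no outlying libraries or sex differences, so the run does not bear on the calls that move with such libraries. Alternatives were DESeq2 1.42.0, DESeq2 size factors, no filter on low counts, a replicate block, 1 fit of all 6 groups, each replicate left out, and libraries alike in sex-linked transcripts. List counts without doubted libraries were chosen after seeing the data. The genes, lists and rules were chosen with earlier results of these data known. All 10 genes are reported in every comparison, as a value or as not tested, and of each list up to 2 higher and 2 lower genes by smallest adjusted p. Coordinates and exon lengths come from GENCODE on GRCm38, and those of Cd74 are not reported here. Intervals cover counting error only, because PCR copies were not separated by molecular identifiers.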

Additional observations from a re-analysis of the deposited data

Results flagged for a closer look

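Among 30 sets of library values (10 genes in the 3 groups of 4 or 5 libraries), 3 held a library far from the others by Dixon's test, where chance gives about 1 in 20. H2-D1 was lowest in WT_MSC replicate 1, at 102 CPM, while the other 3 libraries were at 163 to 167 CPM. Tap1 was highest in WT_MSC_AML replicate 3, at 35.8 CPM, while the others were at 25.1 to 27.8 CPM. Psmb8 was highest in KO_MSC replicate 1, at 9.78 CPM, while the others were at 5.83 to 6.42 CPM. WT_MSC replicate 1 is the WT_MSC library that held Xist without Ddx3y, and KO_MSC replicate 1 held both transcripts. The part of this in the values was not tested.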

How the results depend on the processing

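Of the log2 fold changes of single genes past the threshold, all 21 kept direction and call with DESeq2's Wald test, with DESeq2 size factors and without the filter on low counts. With the replicate number of the titles as a block, the number of genes called fell from 4 to 0 in KO_MSC against WT_MSC (2.02% of all genes called) and from 2 to 1 in KO_MSC_AML against WT_MSC_AML (8.33%), and no other count moved. The block weakened H2-D1, Tap2, Psmb8 and Psmb9 in the first and Cd74 in the second. No comparison had every pair's deviations correlated above 0.1. In KO_MSC against WT_MSC they were at 0.201 and 0.203 for replicates 1 and 3 and at -0.0326 and -0.0225 for replicates 2 and 4. So few pairs cannot tell whether same-numbered samples belong together, and the cause was not tested. In 1 fit of all 6 groups 1 gene, Tap2, was called in KO_MSC_AML against KO_MSC (10.1% of all genes), and Nlrc5 was lost in WT_AML against WT_MSC_AML. In libraries with Ddx3y and without Xist, 9 genes were called in KO_MSC against WT_MSC (60%).

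With each replicate left out in turn, the number of genes called ran from 0 to 7 in KO_MSC against WT_MSC (7 without WT_MSC replicate 1), while the share of all genes called ran from 0.407% to 46.0%. The number ran from 2 to 3 in KO_MSC_AML against WT_MSC_AML (21.1% to 33.2% of all genes) and from 0 to 1 in KO_MSC_AML against KO_MSC (0% to 9.93%). It ran from 7 to 9 in WT_AML against WT_MSC_AML (77.9% to 84.2%) and from 7 to 8 in KO_AML against KO_MSC_AML (73.7% to 80.9%). In the other comparisons it stayed at 0.

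No called fold change reversed. Reversals of values past no threshold were as follows, on the log2 scale. With the replicate block Nlrc5 was at -0.17 in KO_MSC against WT_MSC, Tap2 at 0.02 and Psmb9 at 0.06 in WT_MSC_AML against WT_MSC, Psmb8 at -0.02 in KO_MSC_AML against KO_MSC and Psmb9 at -0.27 in KO_MSC_AML against WT_MSC_AML. In libraries with Ddx3y and without Xist Nlrc5 was at -0.24 in KO_MSC against WT_MSC, and in WT_MSC_AML against WT_MSC H2-K1 was at -0.00, H2-D1 at -0.14, Tap2 at 0.11 and Cd74 at -0.06. In libraries with Xist and without Ddx3y Nlrc5 was at 0.23 in KO_MSC_AML against KO_MSC. Leaving out each replicate gave these ranges where a sign changed. In KO_MSC against WT_MSC Nlrc5 ran from -0.80 to 0.43. In WT_MSC_AML against WT_MSC H2-K1 ran from -0.00 to 0.08, H2-D1 from -0.14 to 0.06, Tap2 from -0.10 to 0.11, Psmb9 from -0.33 to 0.13 and Cd74 from -0.06 to 0.71. In KO_MSC_AML against KO_MSC Psmb8 ran from -0.32 to 0.29. In KO_MSC_AML against WT_MSC_AML Tap2 ran from -0.09 to 0.29 and Psmb9 from -0.27 to 0.51. In the interaction B2m ran from -0.09 to 0.04, Nlrc5 from -1.87 to 0.25, Cd74 from -1.30 to 0.70 and H2-Ab1 from -0.35 to 0.03. In KO_AML against WT_AML Cd74 ran from -0.05 to 0.89 and H2-Ab1 from -0.44 to 0.06. Nlrc5 and Cd74 had few counts, at most 117 over a group, which limits their precision.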
